A study of Mus musculus with 12 samples.

Results

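The genes described here code for the matrix metalloproteinases (Mmp), the ADAMTS proteases (Adamts) and their tissue inhibitors (Timp) in mouse gingiva. Members were found by gene symbol alone, as every row of the count table whose symbol was Mmp, Adamts or Timp followed by a number and, where present, a letter. The rule found 45 of the 21965 genes in the table, of which 22 were Mmp, 19 Adamts and 4 Timp genes, and all were annotated as protein coding. The family itself was picked for description with earlier results of these data known, so its share of calls is no blind test. Of these, 40 passed the filter on low counts and were tested among 15046 genes.

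The study asked how the loss of Nox2, the phagocyte NADPH oxidase that makes reactive oxygen species, changes the inflammation of gingiva around a ligated tooth. Gingival polyadenylated RNA made 12 sequencing libraries, in 4 groups of 3 mice matched for age and sex. WT mice were C57BL/6 (wildtype) in the labels and C57BL/6J in the study's methods, and CybbKO mice carried the Cybb-/- genotype, which disrupts the gene for the membrane subunit of Nox2. In the ligated groups of both genotypes a silk thread was tied around a maxillary molar and the tissue around it was taken after 8 days, and the naive groups of both genotypes had no ligature. All mice were below 12 weeks of age, and the labels give no sex for a library. The knockout acts in every cell of the animal, so it is not a deletion in neutrophils alone. Reads on Cybb did not check the labels in the usual direction, since they were higher in the libraries labelled CybbKO, at 47.9 ± 7.56 counts per 1000000 counts on tested genes, scaled by edgeR's TMM factors (CPM, mean ± SD, n = 3), in naive and 57.0 ± 6.31 in ligated tissue, than in the WT libraries, at 5.06 ± 0.758 and 12.1 ± 3.43. Whether the allele is still transcribed was not tested. The summed neutrophil markers in ligated tissue ran from 3022 to 11784 CPM in the libraries labelled CybbKO and from 1606 to 4008 in those labelled WT. Of the 10 neutrophil markers tested, edgeR placed 5 higher and 0 lower in CybbKO at an unadjusted p under 0.05 and called 0, with a median log2 difference of 1.25. Of all tested genes it placed 2.87% higher and 0.472% lower at that p. Groups are kept as labelled, and CybbKO means the libraries labelled so throughout.

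Matrix metalloproteinases are zinc enzymes that are made as inactive proenzymes and cleave collagens, proteoglycans and other proteins once their propeptide is removed. The collagenases cut intact fibrillar collagen, the gelatinases degrade the cut and denatured chains, the stromelysins cleave a wide range of matrix proteins and activate other proenzymes, and the membrane-type enzymes act at the cell surface. ADAMTS proteases are secreted relatives that cleave proteoglycans such as aggrecan and versican, trim procollagens or process other matrix proteins. The Timp proteins bind the active site of these enzymes and block it. In periodontal tissue these enzymes are known for the breakdown of the collagen that holds the tooth in its socket.

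Of the 45 genes, 9 of the Mmp genes lie together on chromosome 9 of GRCm38, between positions 7272514 and 7699585, a stretch of 427 kb. RefSeq promoter windows, the 250 bases before a gene's start on GRCm38.p6, were at hand for 31 of the 45 genes, in 34 windows. The windows were searched for the AP-1 motif TGANTCA, which reads the same on both strands and is bound by Fos and Jun proteins. It was present for 7 of the 31 genes (22.6%), against 7.82% of all 27025 genes with a window. All 7 belonged to the cluster on chromosome 9, namely Mmp13, Mmp3, Mmp10, Mmp12, Mmp1b, Mmp20 and Mmp7, and the windows of the other genes of the cluster, Mmp8 and Mmp27, did not hold it. Mmp12 and Mmp7 each had a further window without it. The Mmp12 window with the motif, at positions 7347124 to 7347373, lay inside the annotated gene, which starts at 7344381. The TATA motif TATAAA, searched on both strands and unable to share letters with the AP-1 motif, was present for 8 of the 31 genes (25.8%) and for 14.3% of all genes. A match is a description of the letters and was not tested as a binding site. The windows of Mmp13, Mmp3 and Mmp10, a collagenase and both stromelysins, are shown because their transcripts carry much of the results, and that of Mmp7, which holds the motif but had 1 read in the 12 libraries, stands beside them. All lie on the plus strand, and the capitals mark the AP-1 motif.
Mmp13, chr9:7272264-7272513: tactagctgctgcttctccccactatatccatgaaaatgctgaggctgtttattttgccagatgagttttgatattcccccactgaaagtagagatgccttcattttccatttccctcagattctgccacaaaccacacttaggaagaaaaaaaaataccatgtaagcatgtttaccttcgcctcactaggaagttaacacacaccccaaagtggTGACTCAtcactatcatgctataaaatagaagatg
Mmp3, chr9:7445572-7445821: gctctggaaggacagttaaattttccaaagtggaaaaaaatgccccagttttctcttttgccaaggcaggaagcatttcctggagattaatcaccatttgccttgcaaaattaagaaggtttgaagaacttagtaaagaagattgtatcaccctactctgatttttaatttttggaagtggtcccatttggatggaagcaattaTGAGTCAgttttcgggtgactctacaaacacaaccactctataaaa
Mmp10, chr9:7502092-7502341: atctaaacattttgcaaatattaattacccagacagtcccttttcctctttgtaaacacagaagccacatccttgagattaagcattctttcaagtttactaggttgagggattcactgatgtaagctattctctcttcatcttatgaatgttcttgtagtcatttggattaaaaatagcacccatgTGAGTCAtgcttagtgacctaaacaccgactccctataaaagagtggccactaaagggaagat
Mmp7, chr9:7691840-7692089: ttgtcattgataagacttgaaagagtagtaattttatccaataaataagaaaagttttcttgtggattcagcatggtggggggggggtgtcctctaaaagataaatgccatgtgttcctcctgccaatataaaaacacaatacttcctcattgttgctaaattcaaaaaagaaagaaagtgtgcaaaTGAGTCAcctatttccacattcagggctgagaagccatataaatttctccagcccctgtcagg
The motif began at position -35 from the start in Mmp13, -46 in Mmp3 and -63 in both Mmp10 and Mmp7.

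Total counts ran from 27958819 to 42613423 a library. Before the results, 2 libraries have to be named. CybbKO ligated library 2 had the lowest level of its group in 32 of the 40 tested genes, or 80% against 47.2% of all tested genes and 77.3% of the 2215 tested genes called higher with the ligature, together with the lowest summed level of 10 fibroblast marker genes, 4519 CPM against 12161 and 11195 in the other 2 libraries of its group. WT naive library 3 had the highest level of its group in 29 of the 40 genes, or 72.5%. It was the highest in 39.9% of all tested genes and in 46.4% of those called higher with the ligature. Its summed level of 7 salivary gland marker genes was 29371 CPM, where the other 11 libraries ran from 63.7 to 5086. The main counts of genes are therefore also given without these libraries, a choice made after seeing the data. The tissue carried the markers of gingiva, with a summed level of 10 oral epithelial genes of 77072 to 143604 CPM. In bulk tissue, more cells of a type and more RNA per cell cannot be told apart.

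With the ligature, most protease genes rose in the average over the genotypes and in CybbKO tissue and fewer were called in WT tissue, while the inhibitor genes were divided. Averaged over the genotypes, edgeR's quasi-likelihood test called 32 of the 40 tested genes higher and 1 lower in ligated than in naive tissue. A gene was called where its p, adjusted by Benjamini-Hochberg over all 15046 genes, was below 0.05. These were 82.5% of the genes, against 24.4% of all tested genes called in this comparison, 14.7% higher and 9.66% lower. The median log2 fold change was 1.43 over the 40 genes and -0.03 over all tested genes. Of the 40, 5 (Adamts3, Adamts13, Adamts16, Mmp1b and Mmp27) reached the filter's minimum in fewer than 3 naive libraries and so passed it through the ligated ones. Without genes of that kind 28 of 35 were called higher and 1 lower in the average, against 13.9% of all remaining genes higher, with a median of 1.34. In WT tissue 10 of 35 were then called higher, against 2.23%, and in CybbKO tissue 28 of 35, against 9.55%. By family, 15 of 18 Mmp, 15 of 18 Adamts and 2 of 4 Timp genes rose, and the 1 that fell was Timp3. In 30 of the 40 genes the rise was over 2-fold, and in 11, Adamts16 among them, over 4-fold. Levels in all 6 ligated libraries lay above those in all 6 naive libraries for 20 genes and below them for 1, where 6.73% of all tested genes were apart in the first direction, 4.31% in the second and 11% in either. Without CybbKO ligated library 2 these counts were 24 and 1, against 9.33% and 7.33% of all tested genes, and without WT naive library 3 they were 22 and 1, against 10.2% and 6.46%.

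**Figure D1:**
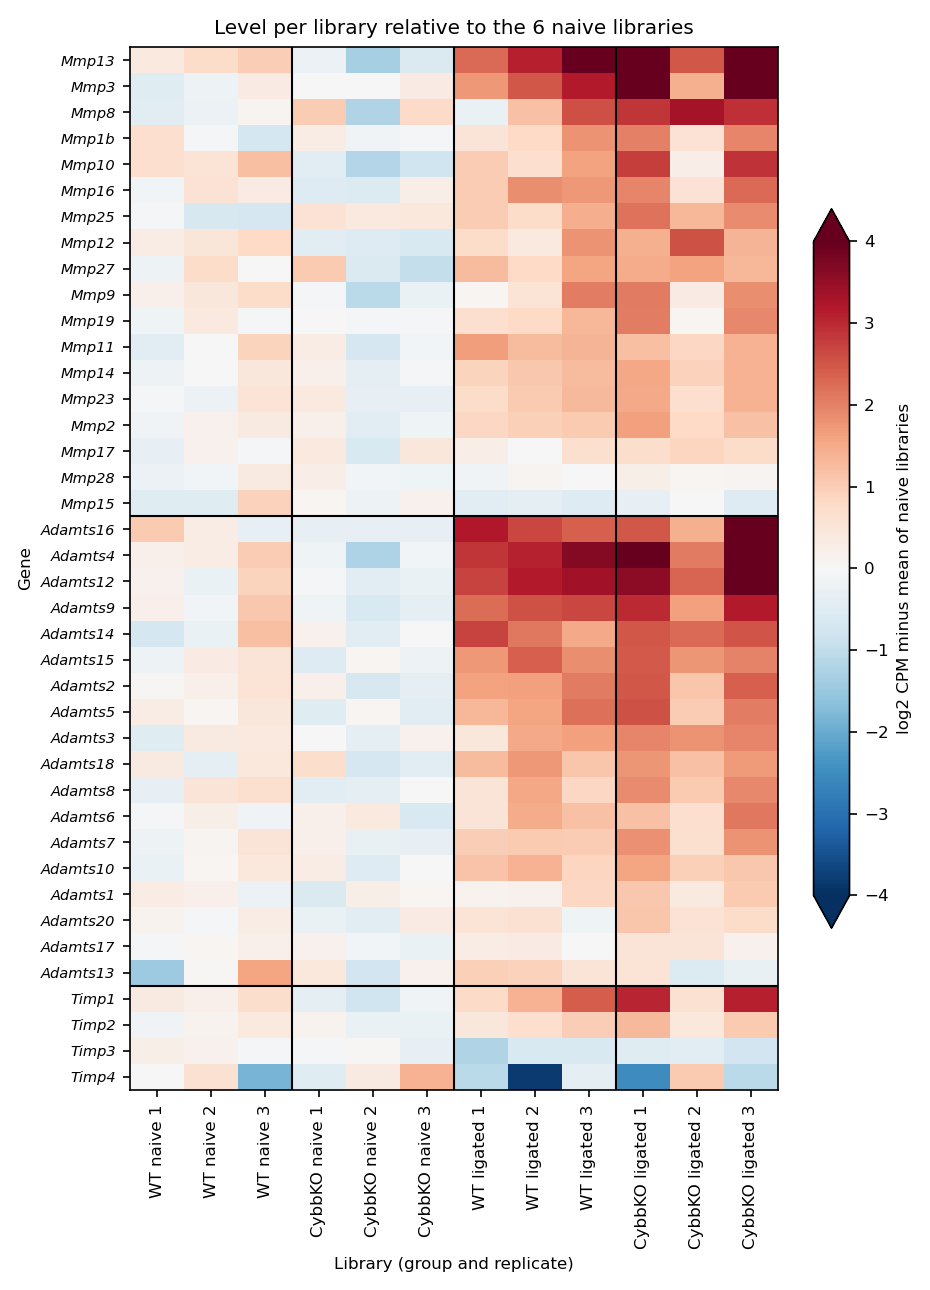
Each row is 1 of the 40 tested genes and each column 1 of the 12 libraries. Colour gives log2 CPM minus the mean of the 6 naive libraries, so red is higher and blue lower than naive tissue, and the scale saturates at 4 in either direction. Most rows of Mmp and Adamts genes turn red in the ligated columns, with Mmp15, Mmp28 and Adamts13 among the exceptions, and CybbKO ligated 2 has the lowest value of its group in 32 of the 40 rows. Timp3 turns blue.

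Within each genotype the counts were smaller. In WT tissue 10 genes rose and 1 fell, 27.5% of the 40 against 3.2% of all tested genes (2.31% higher and 0.884% lower). DESeq2 called 14 higher and 1 lower, and 9.15% of all tested genes. In CybbKO tissue 30 rose and 0 fell, 75% against 13% of all (9.95% higher and 3.04% lower), and DESeq2 called 30 and 0, with 18.4% of all. The median log2 fold change was 1.08 in WT and 1.69 in CybbKO tissue. The WT calls were Mmp3, Mmp14, Mmp25, Adamts2, Adamts4, Adamts5, Adamts9, Adamts10, Adamts12 and Adamts15, which rose, and Timp3, which fell. The 10 that rose were also called higher in CybbKO tissue. In WT tissue 25 genes were higher at an unadjusted p under 0.05, where edgeR placed 11.3% of all tested genes, and the number called ran from 0, without WT naive library 2, to 16, without CybbKO ligated library 2, which enters the shared estimate of the spread. It was 5 without WT ligated library 1, 2 without WT ligated library 2 or 3, 2 without WT naive library 1, and 7 and 5 without CybbKO naive library 1 or 3. In CybbKO tissue it was 19 without CybbKO ligated library 1 or CybbKO naive library 2 and 31 without CybbKO ligated library 2.

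Marker genes of several cell types moved with the ligature too. Averaged over the genotypes, 9 of 10 tested neutrophil, 10 of 10 macrophage, 9 of 10 fibroblast, 8 of 8 endothelial and 7 of 7 osteoclast marker genes were called higher, and 1 of 10 oral epithelial genes was called higher and 1 lower. Of all tested genes 14.7% were called higher and 9.66% lower. Higher calls came to 4 of 7 for bone, 4 of 7 for T and NK cell, 1 of 8 for skeletal muscle and 0 of 4 for tooth markers. Of 6 salivary gland and 7 mast cell markers 0 were called higher and 1 each lower. The summed fibroblast markers ran from 1687 to 3425 CPM in naive and from 4519 to 12161 in ligated libraries. For the neutrophil markers the ranges were 479 to 1049 and 1606 to 11784, for the macrophage markers 115 to 173 and 194 to 460.4, and for the osteoclast markers 54.1 to 84.4 and 121 to 406. Of the neutrophil markers, up to 3 of 12 were at 0 in a library, and no fibroblast or macrophage marker was at 0 in any. Their part in the changes described here was not tested.

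Among the collagenases, Mmp13 (ENSMUSG00000050578, collagenase 3) had the largest fold change of the genes with reads in every group. Its levels in libraries 1, 2 and 3, the order used throughout, were 10.3, 13.2 and 15.6 CPM in WT naive, 6.61, 3.08 and 5.28 in CybbKO naive, 38.1, 67.6 and 363 in WT ligated and 554, 43.8 and 693 in CybbKO ligated tissue. All 6 ligated libraries lay above all 6 naive ones, and within each ligated group the libraries differed widely. The averaged log2 fold change was 5.01 (SE 0.73, adjusted p = 0.000861), or 32.2-fold, and it was 4.23 without WT ligated library 3. In CybbKO tissue it was 6.43 (SE 1.10, adjusted p = 0.00435). The WT value of 3.58 (SE 0.96) did not pass edgeR's test (adjusted p = 0.0665), though it passed DESeq2's (adjusted p = 0.00638) and, without CybbKO ligated library 2, also edgeR's (adjusted p = 0.0184). The WT change rested much on WT ligated library 3, without which it was 2.02 (adjusted p = 0.269).

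Mmp8 (ENSMUSG00000005800), the collagenase stored in neutrophil granules, was low throughout. It stood at 0.457, 0.538 and 0.693 CPM in WT naive, 1.36, 0.250 and 1.13 in CybbKO naive, 0.523, 1.52 and 4.10 in WT ligated and 5.07, 6.98 and 5.25 in CybbKO ligated tissue. The 3 CybbKO ligated libraries lay above all others, and CybbKO ligated library 2, the lowest of its group for most genes, was here the highest. The averaged log2 fold change was 2.26 (SE 0.48, adjusted p = 0.00629), and the CybbKO value was 2.66 (SE 0.67, adjusted p = 0.0236). In WT tissue it was 1.86 (SE 0.69, adjusted p = 0.160), with 0.86 without WT ligated library 3 (adjusted p = 0.574) and 2.36 without WT ligated library 1. Mmp1b, one of the mouse counterparts of interstitial collagenase, had at most 13 reads in a library. It passed the filter on low counts only through the ligated libraries, so its rise is partly set by the filter. It was called higher in the average alone (log2 2.08, SE 0.60, adjusted p = 0.0269), and its gene body overlaps that of Mmp12 on the opposite strand. Mmp1a was not analysed here.

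Among the stromelysins, Mmp3 (ENSMUSG00000043613, stromelysin 1) was called in both genotypes. Its CPM was 3.72, 4.46 and 6.49 in WT naive, 5.195, 5.24 and 6.50 in CybbKO naive, 17.2, 29.4 and 46.7 in WT ligated and 92.5, 13.9 and 117 in CybbKO ligated tissue. Ligated and naive libraries did not overlap. The log2 fold change was 2.67 in WT (SE 0.62, adjusted p = 0.0422), 3.72 in CybbKO (SE 0.64, adjusted p = 0.00437) and 3.20 in the average (SE 0.44, adjusted p = 0.000693).

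Mmp10 (ENSMUSG00000047562, stromelysin 2) behaved differently in the WT libraries. It read 7.49, 6.74 and 10.9 CPM in WT naive, 3.35, 2.03 and 2.65 in CybbKO naive, 9.46, 7.43 and 14.3 in WT ligated and 32.1, 5.54 and 34.9 in CybbKO ligated tissue. The WT naive and ligated libraries overlapped, and the 3 CybbKO naive libraries were the lowest of the 12. The log2 fold change was 0.31 in WT (SE 0.52, adjusted p = 0.784, and 0.015 without WT ligated library 3) and 3.17 in CybbKO tissue (SE 0.56, adjusted p = 0.00493). Mmp11, called stromelysin 3, rose in the average (log2 1.24, SE 0.24, adjusted p = 0.00416) and in CybbKO tissue (1.29), from 2.33 to 6.998 CPM in naive to 6.58 to 12.1 in ligated libraries, ranges that overlap.

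Per unit of exon length, as counts per exon base scaled to a sum of 1000000 in each library (TPM), the gelatinase Mmp2 (ENSMUSG00000031740) was the most abundant Mmp transcript of naive tissue. It gave 49.3% to 56.4% of the summed Mmp TPM in the naive libraries. Its CPM was 158, 198 and 223 in WT naive, 201, 129 and 156 in CybbKO naive, 313, 339 and 359.9 in WT ligated and 543, 304 and 397 in CybbKO ligated tissue. Every ligated library lay above every naive one, with a log2 fold change of 1.08 in the average (SE 0.16, adjusted p = 0.000805), 1.35 in CybbKO (adjusted p = 0.00346) and 0.81 in WT tissue, which was not called (adjusted p = 0.0692). The other gelatinase, Mmp9 (ENSMUSG00000017737), is an enzyme of neutrophils and osteoclasts among other cells. Its levels were 28.99, 34.3 and 41.9 CPM in WT naive, 24.6, 11.9 and 20.99 in CybbKO naive, 26.4, 37.1 and 104 in WT ligated and 106, 31.9 and 92.4 in CybbKO ligated tissue. In WT tissue ligated library 3 stood above the naive ones, library 2 lay among them and library 1 below them (log2 0.68, SE 0.51, adjusted p = 0.503, and -0.14 without library 3). In CybbKO tissue the groups did not overlap (log2 2.00, SE 0.53, adjusted p = 0.0297).

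The membrane-type enzymes were divided. Mmp14 (ENSMUSG00000000957, MT1-MMP), which activates the proenzyme of Mmp2 at the cell surface, read 71.0, 82.8 and 113 CPM in WT naive, 94.8, 64.4 and 77.7 in CybbKO naive, 152, 173 and 196 in WT ligated and 241, 157 and 215 in CybbKO ligated tissue. Its ligated and naive libraries were apart, and it was called in WT (log2 0.96, SE 0.21, adjusted p = 0.0355) and in CybbKO tissue (1.37, SE 0.21, adjusted p = 0.00290). Mmp25 (ENSMUSG00000023903), the membrane-type enzyme of leukocytes, was low but was also called in both, at log2 1.73 in WT (SE 0.38, adjusted p = 0.0340) and 1.47 in CybbKO tissue (SE 0.34, adjusted p = 0.0166). It stood at 0.305, 0.190 and 0.182 CPM in WT naive, 0.520, 0.444 and 0.458 in CybbKO naive, 0.722, 0.576 and 0.986 in WT ligated and 1.67, 0.909 and 1.37 in CybbKO ligated tissue. Mmp16 rose in the average (log2 1.72, adjusted p = 0.00361) and in CybbKO tissue (2.08, adjusted p = 0.0144). Mmp15 and Mmp17 were not called, with averaged values of -0.43 and 0.53. Mmp15 was highest in WT naive library 3, at 48.3 CPM against 17.9 to 29.04 in the other 11.

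Of the remaining Mmp genes, Mmp12 (ENSMUSG00000049723, macrophage elastase) read 8.34, 9.49 and 11.9 CPM in WT naive, 5.02, 4.74 and 4.39 in CybbKO naive, 11.3, 8.90 and 23.9 in WT ligated and 18.1, 40.3 and 17.4 in CybbKO ligated tissue. WT naive and ligated libraries overlapped (log2 0.57, SE 0.38, adjusted p = 0.443, and 0.027 without WT ligated library 3), while the CybbKO groups were far apart (2.42, SE 0.40, adjusted p = 0.00376). Like Mmp8, it was highest in CybbKO ligated library 2. Mmp19 and Mmp23 rose in the average and in CybbKO tissue, with averaged log2 values of 1.26 and 1.11, and Mmp27 in the average alone, at 1.47, with at most 17 reads a library, a pass of the filter through the ligated libraries alone and a call that most single libraries could undo. Mmp28, an enzyme of epithelium, stayed between 10.96 and 16.4 CPM in the 12 libraries (averaged log2 0.04, SE 0.13, adjusted p = 0.845). No call could be made for 4 Mmp genes that failed the filter. Mmp21 had 0 reads, Mmp7 (matrilysin) and the enamel protease Mmp20 had 1 read each, both in WT ligated library 2, and Mmp24 had 89 reads in all, at most 14 in a library.

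Of the 9 genes of the chromosome 9 cluster, 7 were tested, and all 7 were called higher with the ligature in the average, with log2 values from 1.47 to 5.01 and a median of 2.08, where 14.7% of all tested genes were called higher. Mmp1b and Mmp27 are the 2 of these that passed the filter through the ligated libraries alone. The median of 2.08 is the value of Mmp1b, and the lowest value is that of Mmp27. The remaining tested genes were called at 5.01 (Mmp13), 3.20 (Mmp3), 2.26 (Mmp8), 1.74 (Mmp10) and 1.49 (Mmp12). Without genes that passed in this way, 13.9% of all genes were called higher. The 2 untested genes, Mmp7 and Mmp20, hold the AP-1 motif in a window as Mmp13 does. Over all genes called higher in the family that have a window, 5 of 20 (25%) held the motif, close to the 22.6% of the 31 genes of the family with a window.

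**Figure D2:**
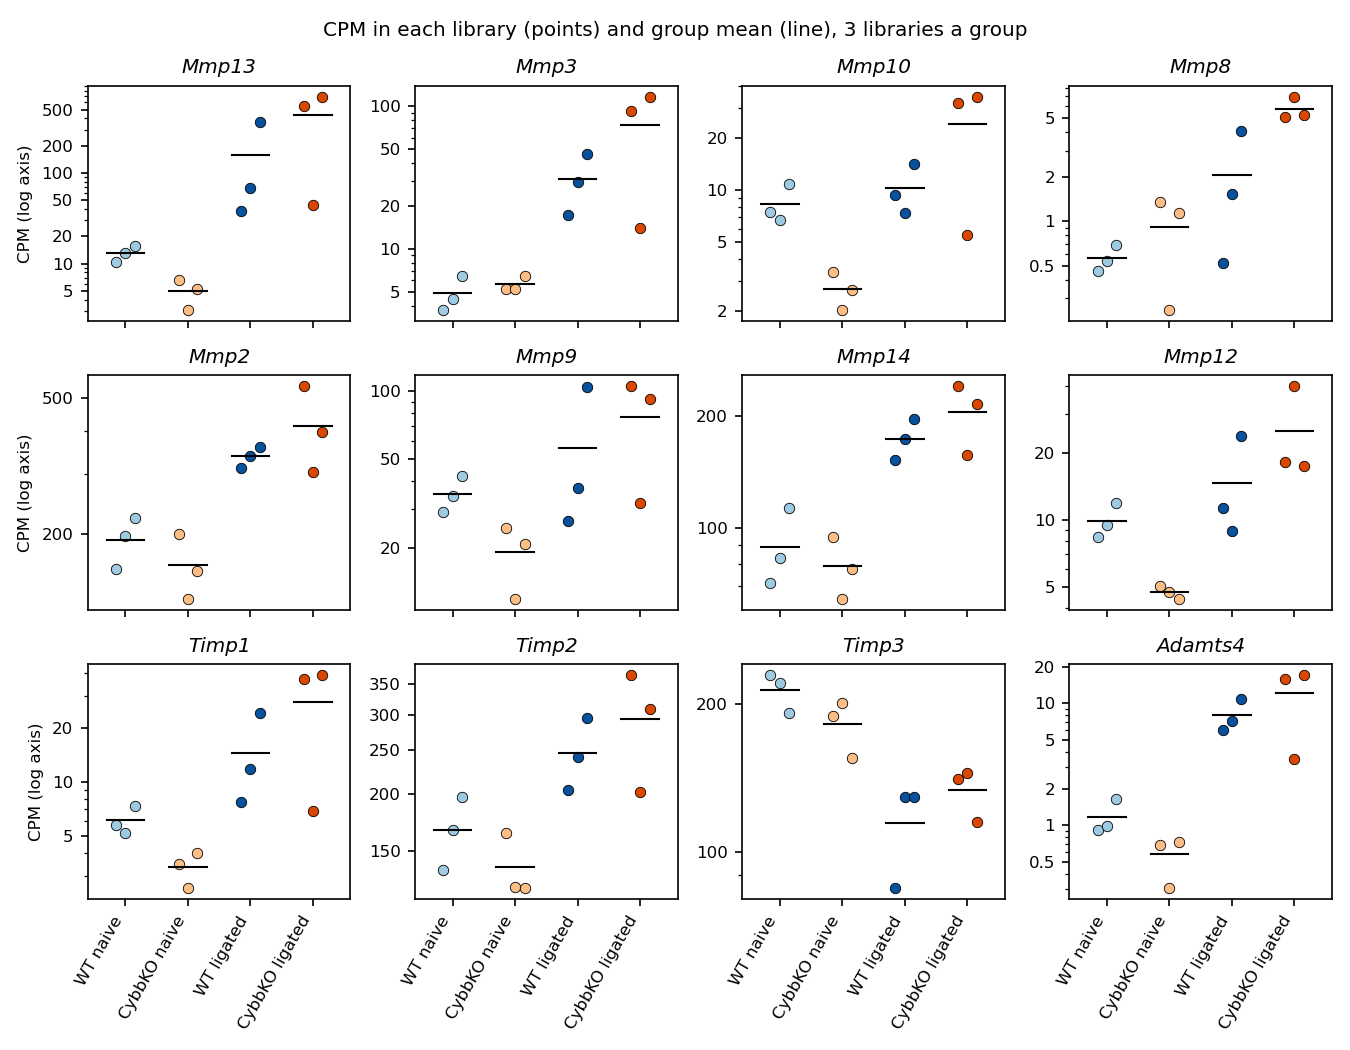
CPM on a log axis in the 12 libraries, grouped as WT naive, CybbKO naive, WT ligated and CybbKO ligated, for 12 of the genes. Points are libraries and lines group means (n = 3). The point of CybbKO ligated library 2 lies far below the other 2 of its group for Mmp13, Mmp3, Mmp10, Timp1 and Adamts4 and above them for Mmp8 and Mmp12.

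The ADAMTS proteases that cleave aggrecan, versican and related proteoglycans rose with the ligature in 6 of 7 tested cases in the average, 6 of 7 in CybbKO and 4 of 7 in WT tissue, where 14.7%, 9.95% and 2.31% of all tested genes were called higher. Adamts4 (ENSMUSG00000006403), an aggrecanase, changed most. It read 0.914, 0.980 and 1.64 CPM in WT naive, 0.693, 0.305 and 0.732 in CybbKO naive, 6.05, 7.12 and 10.8 in WT ligated and 15.9, 3.50 and 17.2 in CybbKO ligated tissue. Ligated and naive libraries did not overlap, and the log2 fold change was 2.77 in WT (SE 0.55, adjusted p = 0.0262) and 4.40 in CybbKO tissue (SE 0.59, adjusted p = 0.00207). Adamts5 (ENSMUSG00000022894), the other main aggrecanase, read 3.90, 3.29 and 4.34 CPM in WT naive, 2.25, 3.33 and 2.32 in CybbKO naive, 8.04, 9.60 and 14.8 in WT ligated and 18.5, 6.42 and 13.1 in CybbKO ligated tissue. It too was apart in all libraries, at log2 1.49 in WT (SE 0.36, adjusted p = 0.0476) and 2.27 in CybbKO tissue (SE 0.37, adjusted p = 0.00342).

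Adamts9 (ENSMUSG00000030022), which also cleaves versican, read 3.29, 2.63 and 6.09 CPM in WT naive, 2.48, 1.83 and 2.14 in CybbKO naive, 13.6, 16.8 and 18.3 in WT ligated and 22.98, 8.93 and 26.2 in CybbKO ligated tissue. Its log2 fold change was 2.02 in WT (SE 0.39, adjusted p = 0.0246) and 3.17 in CybbKO tissue (SE 0.41, adjusted p = 0.00207). Adamts15 (ENSMUSG00000033453) went from 1.37, 1.99 and 2.30 to 5.38, 8.48 and 5.94 CPM in WT and from 1.10, 1.69 and 1.37 to 8.98, 5.56 and 6.46 in CybbKO tissue. Here the ligated groups overlapped each other and both were above all naive libraries (averaged log2 2.07, SE 0.21, adjusted p = 0.000189). Adamts1 and Adamts8 were called in the average and in CybbKO tissue, at averaged log2 values of 0.61 and 1.38, and Adamts20 was not called, at 0.60 (SE 0.23, adjusted p = 0.0754).

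All 3 procollagen N-propeptidases, which trim the amino-terminal propeptide from fibrillar procollagens, rose in the average and in CybbKO tissue. Of all tested genes 14.7% and 9.95% were called higher in these comparisons. Adamts2 (ENSMUSG00000036545) was the most abundant of the Adamts transcripts in ligated tissue, at 17.9 ± 3.63 TPM (SD, n = 3) in WT and 21.95 ± 10.6 in CybbKO libraries, where Adamts1 stood at 14.7 ± 4.38 and 19.7 ± 5.88. These 2 did not differ beyond their spread. Counts on Adamts2 came to 15.5, 17.3 and 22.2 CPM in WT naive, 17.3, 9.65 and 11.7 in CybbKO naive, 46.2, 46.9 and 63.3 in WT ligated and 84.2, 32.5 and 79.3 in CybbKO ligated tissue, with no overlap between ligated and naive libraries. The log2 fold change was 1.51 in WT (SE 0.33, adjusted p = 0.0354) and 2.34 in CybbKO tissue (SE 0.34, adjusted p = 0.00238). Adamts14 had averaged and CybbKO values of 2.31 and 2.64, both called, and missed the threshold in WT tissue at 1.99 (SE 0.49, adjusted p = 0.0512), where it was 2.85 and passed without WT naive library 3 (adjusted p = 0.0122) and also passed, unmoved, without CybbKO ligated library 2 (adjusted p = 0.0439). Adamts3 had 1.76 and 2.20, both called, stayed at or under 1.07 CPM and reached the filter's minimum in 2 of the 6 naive libraries.

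Adamts12 (ENSMUSG00000047497), which with Adamts7 cleaves cartilage oligomeric matrix protein, gave the smallest adjusted p of the family. It read 1.86, 1.36 and 3.10 CPM in WT naive, 1.59, 1.22 and 1.37 in CybbKO naive, 11.1, 15.3 and 17.6 in WT ligated and 20.6, 8.56 and 31.0 in CybbKO ligated tissue. Every ligated library was above every naive one, at a log2 fold change of 2.80 in WT (SE 0.44, adjusted p = 0.0119), 3.85 in CybbKO (SE 0.46, adjusted p = 0.00185) and 3.32 in the average (SE 0.32, adjusted p = 0.000171). Adamts7 was called in the average (1.27) and in CybbKO tissue (1.67). Adamts10 (ENSMUSG00000024299), which acts on fibrillin microfibrils, was called in both genotypes, from 7.77, 9.71 and 12.3 to 20.4, 24.4 and 16.8 CPM in WT (log2 1.05, SE 0.26, adjusted p = 0.0497) and from 11.4, 6.46 and 9.30 to 27.9, 17.8 and 19.7 in CybbKO tissue (1.27, SE 0.26, adjusted p = 0.00896). Adamts6 and Adamts18 rose in the average, at 1.27 and 1.51.

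Adamts16 was at 0 reads in the 3 CybbKO naive libraries, where a count of 0 allows up to 3 reads over the group, and had 3, 1 and 0 reads in WT naive libraries. It had 24, 15 and 12 reads in WT ligated and 13, 5 and 101 in CybbKO ligated libraries, so most of the 119 reads of the last group came from library 3. It passed the filter on low counts only through the ligated libraries, so its rise is partly set by the filter. It was called higher in CybbKO tissue (adjusted p = 0.0178) and in the average (adjusted p = 0.00626). Pooled over the group, its CybbKO ligated level was 34.3-fold the level that 3 reads over the CybbKO naive group would give. This bound allows for counting error in the naive group alone and takes the ligated reads as exact. Without CybbKO ligated library 3 the bound was 8.20-fold, from 18 reads, whose own counting error it leaves out. Adamts13, the protease of von Willebrand factor, and Adamts17 were not called, at averaged log2 values of 0.14 and 0.31. Adamts19 failed the filter, with 22 reads in all.

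Of the inhibitors, Timp1 (ENSMUSG00000001131) read 5.73, 5.19 and 7.36 CPM in WT naive, 3.49, 2.55 and 4.03 in CybbKO naive, 7.69, 11.7 and 24.1 in WT ligated and 37.1, 6.87 and 39.3 in CybbKO ligated tissue. Within each genotype the groups were apart, but CybbKO ligated library 2 fell below the highest WT naive library. The log2 fold change was 3.05 in CybbKO tissue (SE 0.59, adjusted p = 0.00712), 1.25 in WT tissue, which was not called (SE 0.55, adjusted p = 0.233), and 2.15 in the average (SE 0.40, adjusted p = 0.00322). Timp2 (ENSMUSG00000017466), the most abundant inhibitor transcript by TPM in all 12 libraries, read 136, 167 and 198 CPM in WT naive, 164, 125 and 124 in CybbKO naive, 204, 241 and 295 in WT ligated and 367, 202 and 309 in CybbKO ligated tissue. All ligated libraries were above all naive ones, by log2 0.57 in WT (SE 0.23, adjusted p = 0.191), 1.09 in CybbKO (SE 0.23, adjusted p = 0.0103) and 0.83 in the average (adjusted p = 0.00399). Its gene body overlaps Cep295nl on the same strand, so reads on the shared part could belong to either.

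Timp3 (ENSMUSG00000020044), the inhibitor that is bound in the matrix and also blocks ADAMTS aggrecanases, was the gene that fell. It read 229, 219.9 and 191 CPM in WT naive, 189, 200.4 and 155 in CybbKO naive, 84.6, 129.7 and 129.6 in WT ligated and 141, 144 and 115 in CybbKO ligated tissue. All 6 ligated libraries lay below all 6 naive ones, as in 4.31% of all tested genes. It fell by 0.90 on the log2 scale in WT (SE 0.17, adjusted p = 0.0247) and by 0.67 in the average (SE 0.12, adjusted p = 0.00292), and its value of -0.44 in CybbKO tissue was not called (SE 0.17, adjusted p = 0.119). Timp4 (ENSMUSG00000030317) was low and scattered, at 1.46, 2.25 and 0.364 CPM in WT naive, 1.04, 1.89 and 3.93 in CybbKO naive, 0.672, 0.0523 and 1.14 in WT ligated and 0.209, 3.10 and 0.662 in CybbKO ligated tissue. Its groups overlapped in every comparison, and it was called in none.

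Exact permutation tests of single genes, which need no model of the spread, were run on log2 CPM. Within 1 genotype the exact permutation test of 3 libraries against 3 cannot go below p = 0.1. With the labels permuted within each genotype there are 400 arrangements and the smallest two-sided p is 0.005, which 26 of the 40 genes (65%) reached, Timp3 among them, as did 14.6% of all tested genes. Mmp9 did not (exact permutation p = 0.06), nor did Mmp10 (p = 0.03), Mmp12 (p = 0.025) or Mmp8 (p = 0.015).

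Single libraries decided some of these calls. When each of the 12 libraries was left out in turn, 29 of the 33 averaged calls passed each time. The exceptions were Mmp9 (adjusted p up to 0.0569), lost without WT ligated library 3, CybbKO ligated library 1 or WT naive library 2, and the low or little changed genes Mmp27, lost in 8 of the 12 settings, Adamts1, in 7, and Mmp1b, in 6. Mmp27 ran from 1.25 to 2.20, the latter without CybbKO naive library 1, and Mmp1b from 1.74 to 2.68, the latter without WT naive library 1. For Mmp27 the libraries were CybbKO naive 2 and 3, CybbKO ligated 1 and 3, WT naive 1 and 3 and WT ligated 1 and 3. For Adamts1 they were CybbKO naive 1 and 3, CybbKO ligated 1 and 3, WT naive 2 and 3 and WT ligated 3, and for Mmp1b CybbKO naive 2 and 3, CybbKO ligated 1 and 3, WT naive 2 and WT ligated 3.

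In CybbKO tissue 18 of the 30 calls passed each time. Mmp8, Mmp11, Mmp23, Mmp25 and Adamts18 lost theirs without CybbKO ligated library 1 or 3 or CybbKO naive library 2 or 3. Adamts18 was 2.34 without CybbKO naive library 1. Mmp9 (adjusted p up to 0.114) and Mmp19 lost theirs without any of these or CybbKO naive library 1, and Mmp16 without CybbKO ligated library 1 or 3 or CybbKO naive library 1 or 2. Adamts1 (adjusted p up to 0.150) and Adamts6 (up to 0.197) were lost in 7 settings each, namely the CybbKO libraries other than ligated 2, WT naive library 2, and WT ligated library 2 for Adamts1 or 3 for Adamts6. Timp2 was lost without CybbKO ligated library 1 and Adamts16 without CybbKO naive library 2. In WT tissue 0 of the 11 calls passed each time. Adamts12 and Adamts15 were lost without WT naive library 2 alone, and Adamts4 and Adamts9 without WT ligated library 2 or 3 or WT naive library 1 or 2. Timp3 was lost without these or WT ligated library 1, Adamts2 and Mmp14 without these 5 or CybbKO naive library 3, and Mmp3, Mmp25, Adamts10 and Adamts5 in 9, 9, 9 and 10 settings, WT ligated libraries 2 and 3 and WT naive libraries 1 and 2 among them for each.

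**Figure D3:**
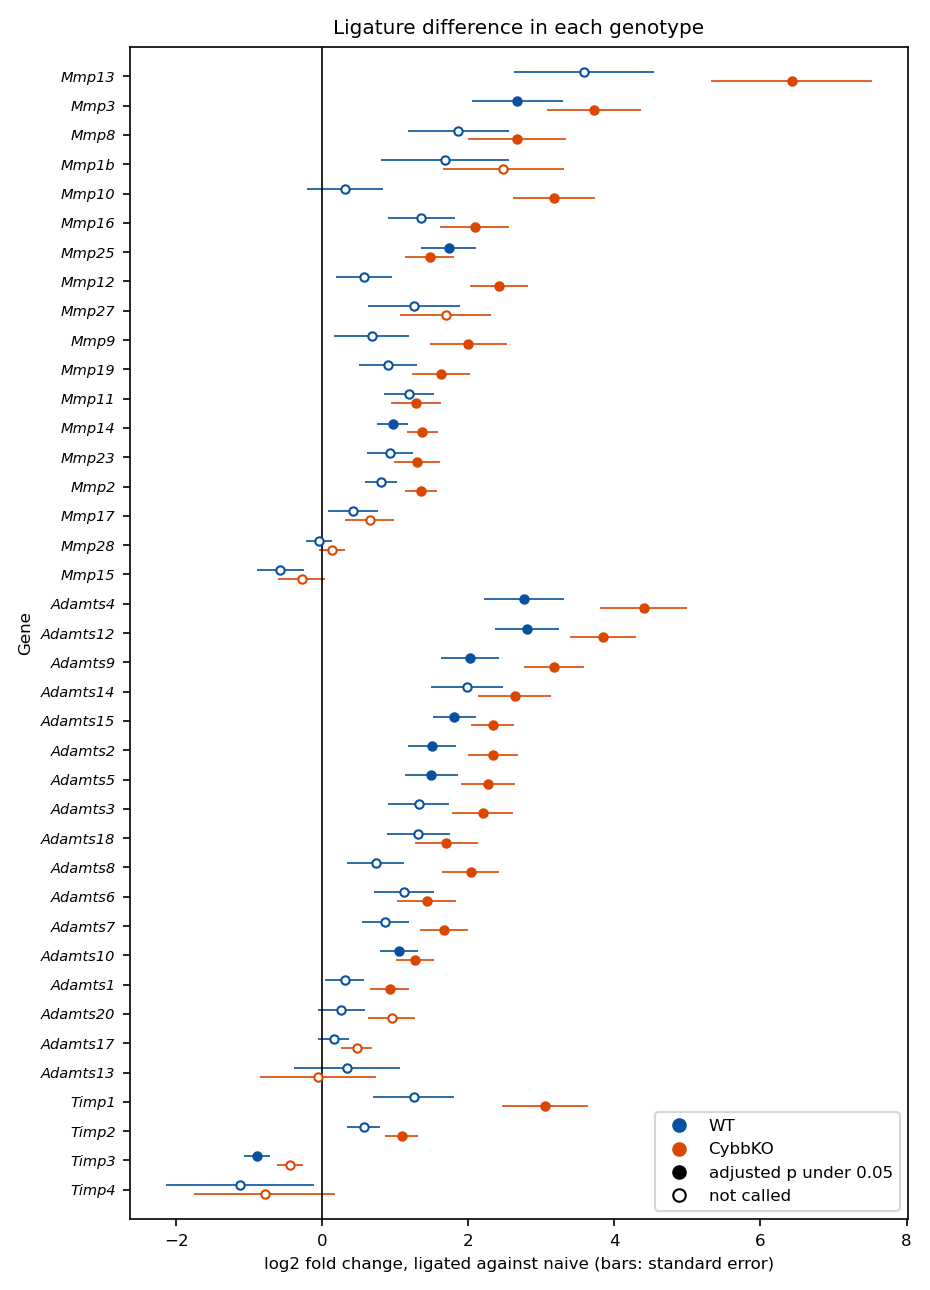
Log2 fold change of ligated against naive tissue, with its standard error, in WT (blue) and CybbKO (orange) mice for 39 of the tested genes. Adamts16 is left out because it had 0 reads in CybbKO naive tissue. Filled points passed the threshold of 0.05 on the adjusted p, which were 10 risen genes and Timp3 in WT and 29 of these 39 in CybbKO.

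Summed over the family by TPM, Mmp transcripts came to 271 to 388 in WT naive, 211 to 278 in CybbKO naive, 536 to 1182 in WT ligated and 500.1 to 1754 in CybbKO ligated libraries. Summed Timp transcripts came to 212 to 237.9, 159.6 to 183, 221 to 388 and 220.3 to 502 in the same order. The ratio of summed Mmp to summed Timp TPM was 1.28 to 1.63 in WT naive, 1.16 to 1.54 in CybbKO naive, 2.25 to 3.05 in WT ligated and 2.27 to 3.996 in CybbKO ligated libraries. Ligated and naive ranges of this ratio did not overlap, and those of the genotypes did. It compares transcripts, not enzymes, which are made as inactive proenzymes.

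The make-up of the Mmp pool shifted with the ligature. Mmp13 gave 4.33% to 4.62% of summed Mmp TPM in WT naive and 1.66% to 2.34% in CybbKO naive libraries, and 8.22%, 12.3% and 37.4% in WT ligated and 38.6%, 9.27% and 47.1% in CybbKO ligated libraries 1, 2 and 3. By mean TPM the order in CybbKO ligated tissue was Mmp13, at 511 ± 407 (SD, n = 3), then Mmp2, at 383 ± 137, Mmp3, at 131 ± 96.0, and Mmp14, at 106 ± 29.3, where Mmp13 and Mmp2 overlapped in their spread, as did Mmp3 and Mmp14, while Mmp2 stood above Mmp3 in each library. In CybbKO ligated library 2 Mmp2 stood above Mmp13, at 255 against 46.4 TPM. In WT ligated tissue Mmp2 led at 321 ± 30.9, ahead of Mmp13 at 189.6 ± 219, and these did not differ beyond their spread. Timp3 gave 28.4% to 41.1% of summed Timp TPM in naive and 10.3% to 22.8% in ligated libraries.

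Between the genotypes no gene of the family passed the test. In ligated tissue 0 of 40 were called in CybbKO against WT, where 0.00665% of all tested genes (1 gene) was. At an unadjusted p under 0.05 edgeR gave 4, all higher in CybbKO, against 3.34% of all tested genes, and DESeq2 called 0, with 0.0931% of all. The 4 were Mmp8 (log2 1.49, SE 0.63), Mmp3 (1.26, SE 0.58), Mmp10 (1.22, SE 0.52) and Mmp25 (0.79, SE 0.33), each with an adjusted p = 1.00. Mmp13 was higher by log2 1.46, with an SE of 0.88, and Timp1 by 0.94, with an SE of 0.54. In 38 of the 40 genes the CybbKO mean was above the WT mean, against 53.4% of all tested genes and 77.9% of the 2215 genes called higher with the ligature, with a median log2 difference of 0.41. Mmp8, Adamts3 and Mmp17 had no overlap between the groups, which is 3 of 40, all 3 higher in CybbKO, where 7.84% of all tested genes did not overlap, 5% higher and 2.84% lower. The summed macrophage markers ran from 284 to 460.4 CPM in CybbKO ligated against 194 to 332 in WT ligated libraries, the neutrophil markers from 3022 to 11784 against 1606 to 4008, and the fibroblast markers from 4519 to 12161 against 6133 to 9269. Their part was not tested.

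CybbKO ligated library 2 weighed on this comparison, since for most genes it lay below the 3 WT ligated libraries or among them. Without it 0 genes were called, with a lowest adjusted p of 0.266 by edgeR, for Mmp10 (log2 1.69) and Mmp3 (log2 1.75). Mmp13 stood at 2.00 and Timp1 at 1.40 without it, and Mmp8 at 1.33. The CybbKO value was then above WT in 37 of 41 genes, with no share of all tested genes computed. There was no overlap in 23 genes, all higher in CybbKO, where 17% of all tested genes were higher with no overlap and 9.56% lower. Other libraries moved these values as well. Mmp13 ran from 0.93 without CybbKO ligated library 3 to 3.02 without WT ligated library 3, and Timp1 from 0.60 to 1.51 without the same libraries. Mmp13 was also 0.99 without WT ligated library 1, and Timp1 0.62 without it. Mmp3 was 0.77 without CybbKO ligated library 3, and Mmp8 was 2.497 without WT ligated library 3. None of these settings gave a call.

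In naive tissue 0 of 40 were called, where 0.00665% of all tested genes (1 gene) was, and DESeq2 called 0, with 0.0133% of all. Here most differences ran the other way. The CybbKO mean was below the WT mean in 34 of 40 genes, against 49.5% of all tested genes and 61.9% of the 2215 genes called higher with the ligature, with a median log2 difference of -0.24. Without WT naive library 3 it was below in 27 of 40 genes, with a median of -0.14 and no share of all tested genes computed. At an unadjusted p under 0.05, where edgeR placed 2.03% of all tested genes, there were Mmp10 (log2 -1.64, SE 0.54), Mmp12 (-1.07, SE 0.39) and Adamts9 (-0.89, SE 0.40), which were lower, and Mmp25 (1.05, SE 0.39), which was higher, each with an adjusted p = 1.00. All 3 CybbKO naive libraries were below all 3 WT naive ones for Adamts4, Adamts9, Mmp9, Mmp10, Mmp12, Mmp13 and Timp1, and above them for Mmp25. These are 8 of 40 genes, against 5.11% of all tested genes, 3.03% lower and 2.08% higher. Without WT naive library 3, 9 genes were lower and 3 higher with no overlap, where 10.8% and 8.14% of all tested genes were. WT naive library 3 was the highest of its group in all 7 of the lower genes. Summed macrophage markers did not overlap, at 115 to 126 CPM in CybbKO and 129.1 to 173 in WT naive libraries. Fibroblast sums overlapped, at 1687 to 2189 and 2140.1 to 3425, as did neutrophil sums, at 916 to 1049 and 479 to 966. Taken singly, 0 tested markers of these cell types passed edgeR's test between the naive genotypes, even before adjustment of p. The part of these markers in the differences of the family was not tested.

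Whether the ligature changed these genes more in CybbKO than in WT tissue was tested as an interaction. Again 0 of 40 genes were called, as were 0% of all tested genes. By DESeq2 0 were called too. At an unadjusted p under 0.05, where edgeR placed 2.27% of all tested genes, there were 5, all with a larger change in CybbKO, namely Mmp10 (difference of log2 fold changes 2.86, SE 0.75), Mmp13 (2.85, SE 1.28), Mmp12 (1.85, SE 0.54), Timp1 (1.79, SE 0.78) and Adamts8 (1.30, SE 0.55), each with an adjusted p = 1.00. Without WT ligated library 3 the difference was 4.41 for Mmp13, 2.39 for Mmp12 and 2.37 for Timp1, and without any 1 library it was at least 2.32, 1.34 and 1.46 for the same genes. For Mmp10 it ran from 2.498 to 3.33 and for Adamts8 from 1.08 to 1.66, and 0 of these settings gave a call. The change was larger in CybbKO in 38 of the 40 genes, by a median of 0.67, against 0.02 over all tested genes. This follows in part from the naive and ligated differences above, which share the same libraries. The share of all tested genes with a larger change in CybbKO was not computed. Of the 2215 genes called higher with the ligature, 77.9% were higher in CybbKO ligated and 61.9% lower in CybbKO naive tissue. The lean was therefore not the family's alone. In 32 of the 40 genes the CybbKO mean was above WT in ligated and below it in naive tissue, as in 26.7% of all tested genes and in 49.5% of all genes called higher with the ligature. Without WT naive library 3 this held for 27 of 40 genes, and the change was larger in CybbKO in 34, with no share of all tested genes computed. Without CybbKO ligated library 2, Mmp10 came nearest to a call, with a difference of 3.33 and an adjusted p = 0.0900.

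**Figure D4:**
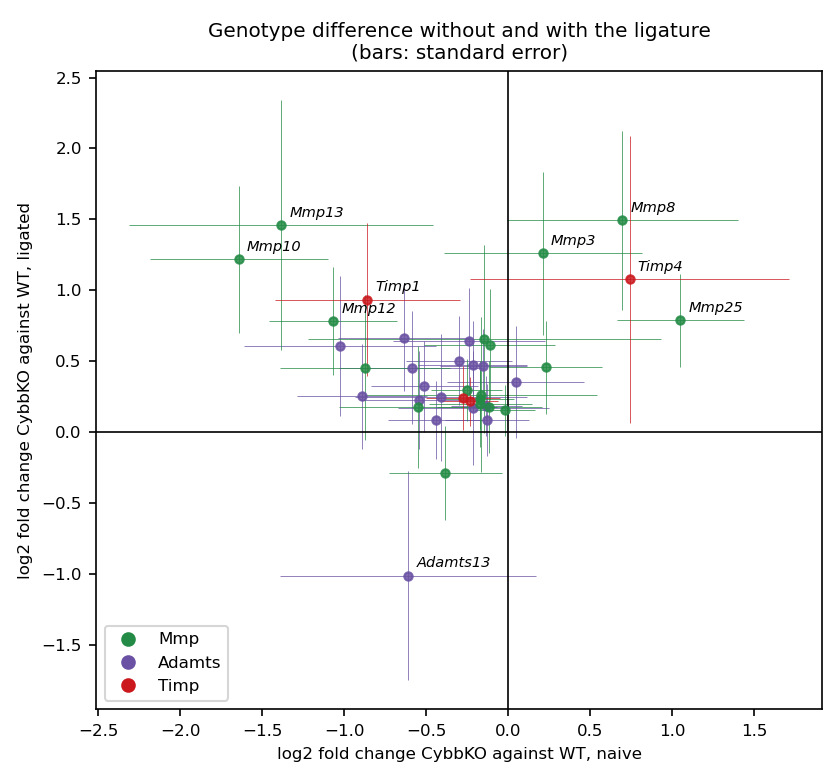
Log2 fold change of CybbKO against WT in naive tissue (horizontal) and in ligated tissue (vertical), with standard errors, for 39 tested genes. Adamts16 is left out because it had 0 reads in CybbKO naive tissue. Most genes lie in the upper left, below WT in naive and above it in ligated tissue, and none was called in either comparison. Both axes and the interaction draw on the same 12 libraries.

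Genes that act with these proteases were followed in lists chosen with earlier results of these data known. In the averaged ligature comparison, 11 of 16 tested matrix substrates were called higher and 0 lower, with a median log2 fold change of 1.65, where 24.4% of all tested genes were called, 14.7% higher and 9.66% lower. These shares are the background for the counts of each list that follows. The largest changes were in Acan, coding for aggrecan, at 3.25 (SE 0.42), and Eln, coding for elastin, at 3.16 (SE 0.32). Of 8 tested inhibitors of other kinds, 3 rose and 1 fell. Tfpi2 (log2 3.66, SE 0.49) codes for a serine protease inhibitor of the matrix and A2m (2.58, SE 0.40) for alpha-2-macroglobulin, which traps proteases of all classes. Slpi, the secretory leukocyte protease inhibitor of mucosa, fell by 0.59 (SE 0.18). Reck, the membrane-anchored inhibitor of metalloproteinases, was not called, at -0.15.

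Among 7 tested activators of proenzymes 3 rose and 1 fell. Plaur, the receptor of urokinase, changed by log2 1.62 (SE 0.32), the proprotein convertase Pcsk5 by 1.18 (SE 0.18) and urokinase itself, Plau, by 0.57 (SE 0.11), while Pcsk6 fell by 0.67 (SE 0.14). Of 11 membrane-bound ADAM proteases 5 rose, led by Adam19 (2.48, SE 0.26) and Adam12 (1.80, SE 0.25). Of 7 ADAMTS-like genes, which lack the protease domain, Adamtsl2 (0.92) and Adamtsl1 (0.77) rose and Adamtsl5 fell by 0.55. Among 4 tested genes of procollagen processing outside the family, Pcolce (1.04) and Tll1 (0.95) rose and Pcolce2 fell by 1.32. Of 4 clearance receptors the collagen receptor Mrc2 (0.83) rose. Of 12 genes for AP-1, NF-kB and Ets transcription factors, whose proteins are regulated after translation as well, Ets1 (1.05, SE 0.20) and Fosl2 (0.50, SE 0.14) rose and 10 were not called, a share near that of all tested genes, as is that of the clearance receptors. In the comparisons between genotypes and in the interaction, 0 genes of these 8 lists were called.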

How the data were processed

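Gingival RNA of 12 mice was sequenced as stranded polyadenylated libraries on a NextSeq 500. The authors deposited raw read counts per gene, whole numbers with no normalization. The study's methods name STAR and featureCounts with strand-specific counting, whereas the submitters' processing notes name HTSeq 0.10.0 and FastQC 0.10.1, so which tool made the counts is not settled here. Totals ran from 27958819 to 42613423 counts a library, so a gene with few reads has wide counting error.

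Genes were placed on GRCm38 by symbol in GENCODE M21, which matched 21939 of 21965 rows and left 26 unmatched. CPM were counts per 1000000 counts on tested genes, scaled by edgeR's TMM factors, and TPM were counts per base of exon scaled to a sum of 1000000 in each library. Differences were tested by edgeR 4.0.16 (quasi-likelihood, TMM, filterByExpr, 15046 genes, all 12 libraries in 1 fit by group) in R 4.3.3. Adjusted p-values are Benjamini-Hochberg over all tested genes, called under 0.05, and SE is the log2 fold change divided by the root of F. Log2 CPM used a prior count of 2. Mice were separate animals within a group, and p-values measure the spread between them. Sequences are from RefSeq, and motifs were counted with Python 3.11.15. The test was checked on simulated data.

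The family and all gene lists were chosen with earlier results of these data known, as were the motifs. By the naming rule, every called gene, the Timp genes and 8 further Mmp genes were to be given by library. Departing from it, called genes of lesser change or level are given by ranges, fold change or counts, and the grouping into enzyme classes was chosen after values were seen. Genes outside the family were to be the 2 largest called changes of each list, and others named were added after their values were seen. Several genes overlap others on the opposite strand (Timp1 and Syn1, Timp3 and Syn3, Timp4 and Syn2, Mmp12 and Mmp1b), which only strand-specific counting, as the methods state it, keeps apart. Alternatives were DESeq2 1.42.0, other scalings and filters, the libraries of 1 contrast alone, the replicate number as a block and leaving out each library.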

Additional observations from a re-analysis of the deposited data

How the results depend on the processing

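In WT tissue the number of genes of the family called with the ligature, 11, ran from 0 to 16 when each of the 12 libraries was left out in turn, and in CybbKO tissue the number, 30, ran from 19 to 31. In the average it ran from 29 to 33. Leaving out CybbKO ligated library 2 and WT naive library 3 together, a choice made after seeing the data, gave 19, 32 and 34. With DESeq2's size factors in edgeR the 3 counts were 10, 30 and 33, with library sizes alone 13, 30 and 33, with no filter 10, 30 and 33, with at least 10 counts in every library 10, 24 and 25, with DESeq2 15, 30 and 33, and with the libraries of 1 contrast alone 9 and 25. Of all tested genes 3.2%, 13% and 24.4% were called in the main fit and 9.15%, 18.4% and 30% by DESeq2. That share is not given for the other settings, so their counts do not show whether the excess of the family moved. Between genotypes and in the interaction 0 were called under each of these settings. The replicate numbers of the labels did not pair the libraries, since 2 of 18 same-numbered pairs correlated over 0.1 (range -0.23 to 0.28) and 2 of 12 libraries correlated best with their own number. With the replicate number as a block the counts were 9, 28 and 31, and 0 in the others.

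Some uncalled values turned sign with single libraries left out. Mmp9 in WT tissue ran from -0.14, without WT ligated library 3, to 1.05. Timp4, CybbKO against WT in ligated tissue, ran from -0.50, without CybbKO ligated library 2, to 1.84, and was -0.48 without both libraries. The Timp4 interaction ran from -1.24, without CybbKO ligated library 2, to 1.10, with -0.20 without WT ligated library 2, -0.22 without WT naive library 2, -0.01 without CybbKO naive library 1 and -0.79 without both. Mmp14 between naive genotypes ran from -0.33 to 0.037, without WT naive library 3, and was 0.047 without both. The Mmp25 interaction was 0.071 without both. Adamts9 between ligated genotypes ran from -0.025, without CybbKO ligated library 3, to 0.60. The cause was not tested.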
